A study of Mus musculus with 12 samples.

Results

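Lsg1 is the gene that the siRNA of this study was aimed at, and it is followed here as a single row, 1 gene of the 55416 in the count tables and 1 of the 17702 that had enough reads to be tested. It was found by its identifier, ENSMUSG00000022538.21, and not by its measured values. The gene is protein coding and lies on the minus strand of mouse chromosome 16. In the annotation used for names it has 9 transcripts, of which 1 codes for protein. That transcript has 14 exons and 3180 bases, and 0 annotated genes overlap the gene's span of 27099 bases.

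Lsg1 is a GTPase of the cytoplasmic end of large (60S) ribosomal subunit assembly. New 60S subunits leave the nucleus with the export adaptor Nmd3 bound to them, and in yeast the Lsg1 GTPase is needed to release Nmd3 once the ribosomal protein Rpl10 has been loaded. The subunit also carries Eif6, which keeps it from joining the small subunit until Sbds and the GTPase Efl1 evict it. Human LSG1 protein has been found both in the cytosol and at the endoplasmic reticulum (ER).

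The cells were E14Tg2a.4 mouse embryonic stem cells, all carrying an Rpl31 with a tag (FTA, for FLAG-TEV-AviTag) that can be biotinylated and cut off with a protease. ALIBi, a proximity biotinylation system delivered in N- and C-terminal fragments, was directed to the ER, and the ribosomes labelled there were affinity-purified with the mRNAs bound to them. Whole-cell RNA was taken from the lysates before purification. Cells received Lsg1 siRNA or a scramble (control) siRNA, and the ER-bound and the whole-cell RNA of each make up 4 groups. Each group held 3 libraries, labelled as biological replicates 1 to 3, so that ER-bound and whole-cell libraries with the same siRNA and number share a lysate. All groups come from 1 cell line. No source used here gives the siRNA's sequence, its dose, the time between transfection and lysis or whether the tagged line is 1 clone, so the site in Lsg1 that it targets is not described.

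Each library held 38092178 to 56522114 reads assigned to genes, of which 1742 to 7444 were Lsg1 reads. Levels are given as CPM, reads of a gene scaled by TMM to a common library size. All 7 embryonic stem cell markers looked at were present in every group, at sums of 6309 to 7842 CPM per library. The 6 fibroblast or feeder markers summed to between 27.9 and 60.1 CPM and the 5 primitive endoderm markers to between 5.38 and 8.30 CPM. None of these 18 markers had 0 reads in a whole group, although Postn and Foxa2 were too low to be tested. Replicate 3 of the ER-bound scramble group and replicate 3 of the whole-cell Lsg1 siRNA group stood apart in 1 unnamed gene, ENSMUSG00000119584.1, at 18460 and 15600 CPM, against 1115 to 4141 CPM in the other 10 libraries. ER-bound scramble replicate 3 was also high in Lars2 (2121 CPM, against 153 and 131 CPM in replicates 1 and 2) and in further genes named below. Results of Lsg1 and its list members are given both ways where leaving out both libraries that stand apart changes a call.

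Lsg1 mRNA was lowest on ER-labelled ribosomes after Lsg1 siRNA, intermediate in whole-cell RNA after Lsg1 siRNA, and at nearly the same level in both fractions with scramble siRNA. ER-bound RNA with Lsg1 siRNA held 35.3, 42.5 and 52.5 CPM of Lsg1, against 142, 149 and 151 CPM in the ER-bound scramble libraries. Whole-cell RNA with Lsg1 siRNA held 83.5, 96.6 and 114 CPM, against 136, 144 and 149 CPM in whole-cell RNA with scramble siRNA. Every one of the 6 libraries labelled Lsg1 siRNA lay below every one of the 6 labelled scramble, so the target gene goes with the labels in all 12 libraries. Among the Lsg1 siRNA libraries, the 3 ER-bound ones lay below the 3 whole-cell ones without overlap, whereas the scramble libraries of the 2 fractions overlapped (not so by library totals, at 148 to 155 CPM in ER-bound and 134 to 143 CPM in whole-cell RNA). In these bulk samples, fewer cells that hold the mRNA and less of it per cell cannot be told apart.

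**Figure D1:**
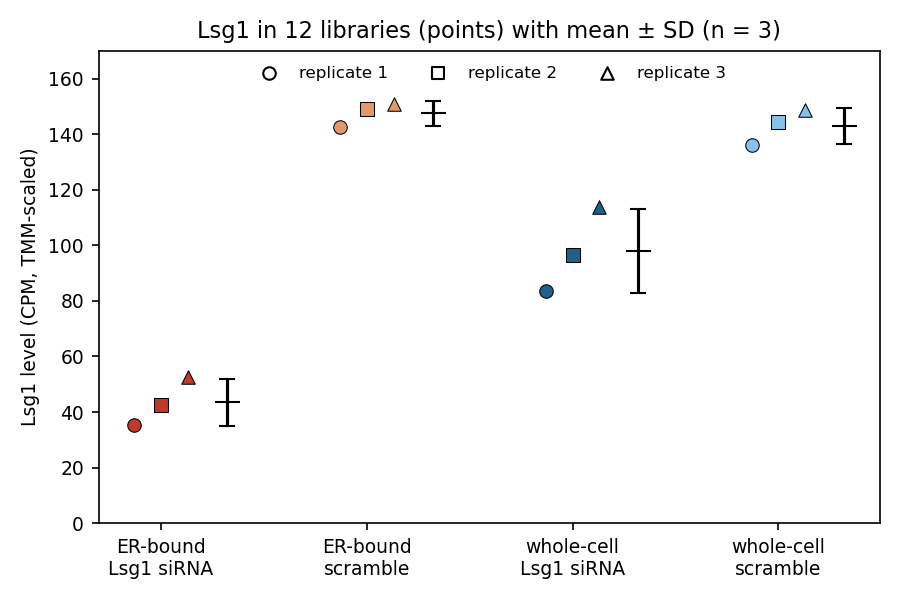
Lsg1 level in CPM in each of the 12 libraries (points) with the mean and SD of each group of 3 (bars), Lsg1 siRNA left of scramble within each fraction. The ER-bound Lsg1 siRNA libraries sit between 35.3 and 52.5 CPM, the whole-cell Lsg1 siRNA libraries between 83.5 and 114 CPM, and all 6 scramble libraries between 136 and 151 CPM.

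On ER-labelled ribosomes, Lsg1 fell to 43.4 ± 8.62 CPM with Lsg1 siRNA, against 148 ± 4.46 CPM with scramble siRNA (SD, n = 3 each). The fitted level with Lsg1 siRNA was 29.4% of that with scramble siRNA (95% interval 25.1% to 34.4%), a log2 fold of -1.77 (SE 0.11). By edgeR's quasi-likelihood test the adjusted p (Benjamini-Hochberg) was 6.3e-08, the second smallest unadjusted p among the 17702 genes. The interval and p use 1 estimate of the spread shared by all 4 groups, although Lsg1 varied more in the Lsg1 siRNA groups. With edgeR's robust moderation of the spread the SE was 0.15 and the adjusted p 0.00043. These fits had no block for replicate number. With that block edgeR gave a log2 fold of -1.78 (SE 0.07) and an adjusted p of 2.4e-10. In this comparison 4.01% of all genes tested passed the adjusted threshold of 0.05, with 2.63% higher and 1.38% lower; with the replicate number as a block 1178 genes passed in place of 710, and without both libraries that stand apart 521 did, 307 of them higher. The lowest scramble library held 2.71 times as much Lsg1 as the highest Lsg1 siRNA library. An exact two-sided permutation test over the libraries gave p = 0.1, the smallest that 3 libraries against 3 allow.

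In whole-cell RNA, Lsg1 averaged 97.9 ± 15.1 CPM with Lsg1 siRNA and 143 ± 6.38 CPM with scramble siRNA (SD, n = 3 each). The fitted ratio was 68.5% (95% interval 59.0% to 79.6%), a log2 fold of -0.55 (SE 0.10). The unadjusted p was 5.5e-05, but with Benjamini-Hochberg adjustment over all genes edgeR's test gave 0.25, and Lsg1 did not pass. Of all genes, 0 passed in this comparison (0% higher and 0% lower), although 731 had an unadjusted p under 0.05; DESeq2 called 5 genes, limma-voom 0, and limma-voom with library weights 20, and without both libraries that stand apart edgeR called 4. Lsg1 did pass in 6 of 25 alternatives, among them the fit of only the whole-cell groups (log2 fold -0.55, adjusted p 0.0016), the one without the 2 libraries that stand apart (-0.67, adjusted p 0.013) and the one without ER-bound scramble replicate 1 (-0.55, adjusted p 0.024).

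The groups did not overlap in whole-cell RNA either, yet their margin was small: the lowest scramble library held 1.20 times as much Lsg1 as the highest Lsg1 siRNA library. The 3 Lsg1 siRNA libraries themselves spanned a factor of 1.36 from lowest to highest, more than that margin. On ER-labelled ribosomes the corresponding factor within the Lsg1 siRNA group was 1.49, against the margin of 2.71 between the groups. The scramble libraries spanned only 1.06 in the ER-bound and 1.09 in the whole-cell fraction. The exact two-sided permutation p was again 0.1.

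Among the 10587 genes that reached 5 CPM in the higher whole-cell group, Lsg1 had the lowest log2 fold of all. In absolute size 6 of these genes had a larger log2 fold, all of them upward, and none passed. The next lowest after Lsg1 were Ppl, coding for the cytoskeletal linker periplakin, at -0.26, and Hacd1, a dehydratase of very-long-chain fatty acid elongation, at -0.25. Neither passed. On ER-labelled ribosomes, 5 of 10793 such genes had lower estimates than Lsg1, and none of these 5 passed. They were ENSMUSG00002075795.1 (log2 fold -4.59), Mir6236 (-2.61), Lars2 (-2.58), ENSMUSG00000119584.1 (-2.45) and Gm15564 (-2.39), with edgeR adjusted p between 0.085 and 0.17.

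These 5 were high in ER-bound scramble replicate 3 and nowhere else in the comparison. Lars2, the mitochondrial leucyl-tRNA synthetase gene, measured 127 to 142 CPM with Lsg1 siRNA, against 153, 131 and 2121 CPM in ER-bound scramble replicates 1, 2 and 3. Whether the reads counted for Lars2 in replicate 3 come from Lars2 mRNA was not tested. Without that replicate the log2 folds of the 5 genes were -0.18, 0.03, -0.10, 0.12 and -0.24, in the order just given. Lsg1 measured 151 CPM in the same library, next to 142 and 149 CPM in the other 2 scramble libraries. The genes after Lsg1 in the ranking were far behind it, at log2 folds of -0.68 for Csgalnact2 and -0.59 for Vamp3.

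With Lsg1 siRNA, Lsg1 on ER-labelled ribosomes stood below its whole-cell level, at 44.3% of it (95% interval 37.8% to 51.8%). The log2 fold was -1.18 (SE 0.11), with an edgeR adjusted p of 2.6e-08. Differences between the fractions were common, since 60.3% of all genes passed, 30.6% higher and 29.8% lower on ER-labelled ribosomes; scaling by library totals changed that split to 6686 genes higher and 4142 lower. Of the 10882 genes that reached 5 CPM in either fraction, 190 were further below their whole-cell level than Lsg1.

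With scramble siRNA, by contrast, Lsg1 was at 103% of its whole-cell level on ER-labelled ribosomes (95% interval 89.0% to 120%; log2 fold 0.04, SE 0.10). The edgeR adjusted p was 0.73 and the exact two-sided permutation p was 0.4, so no difference was detected, with an interval that reaches to both sides of 100%. Neither test used the pairing of the fractions by lysate. The interval uses 1 estimate of the spread shared by all 4 groups, the Lsg1 siRNA groups included. An edgeR fit of only the scramble groups gave a log2 fold of 0.03 (SE 0.04) with an adjusted p of 0.57. In the fit with a block per lysate the log2 fold was 0.05 (SE 0.03) with an adjusted p of 0.21, and under library totals it was 0.12. In this comparison 58.9% of all genes passed, 29.8% higher and 29.1% lower, and scaling by library totals gave 6438 genes higher and 4144 lower. In order, the 4 group means were therefore ER-bound Lsg1 siRNA, whole-cell Lsg1 siRNA, then the whole-cell and ER-bound scramble groups, and no difference between those last neighbours passed the test.

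The effect of Lsg1 siRNA on Lsg1 differed between the fractions. The log2 fold on ER-labelled ribosomes was lower than that in whole-cell RNA by an interaction of -1.22 (SE 0.15; 95% interval -1.53 to -0.91), with an edgeR adjusted p of 0.0013. As a ratio of ratios this was 42.9% (95% interval 34.6% to 53.3%). Among 10939 genes that reached 5 CPM in any group, 6 had a lower estimate than Lsg1 and 7 a larger absolute one. None of these passed. Only 4 genes passed the interaction test, 0.0226% of those tested, with 0.0113% in each direction; with a block per lysate 10 genes passed, and Lsg1 had an adjusted p of 8.2e-09. Of the others, Nme4, a mitochondrial nucleoside diphosphate kinase, stood at 0.59 and Lage3, a subunit of the tRNA-modifying KEOPS complex, at 0.51. The last was Vamp3, a vesicle SNARE of recycling endosomes, at -0.39. Naming Nme4 and Lage3 was not part of the rule for named genes. With robust moderation of the spread the interaction of Lsg1 had an adjusted p of 0.21, the one alternative of 25 in which it did not pass.

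The same difference can be read within each lysate, since both fractions of a lysate were sequenced. With Lsg1 siRNA, the ER-bound level was 42.3%, 44.0% and 46.2% of the whole-cell level in lysates 1, 2 and 3, against 105%, 103% and 102% in the scramble lysates. The mean ratio was 44.2% ± 1.94 with Lsg1 siRNA and 103% ± 1.58 with scramble siRNA (SD, n = 3 lysates each). These ratios were much tighter than the levels they come from: among the Lsg1 siRNA lysates their SD was 0.06 on the log2 scale, while the Lsg1 level had an SD of 0.29 in ER-bound and 0.22 in whole-cell RNA. The Lsg1 siRNA lysate with the least Lsg1 in whole-cell RNA also had the least on ER-labelled ribosomes, and the one with the most had the most in both.

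**Figure D2:**
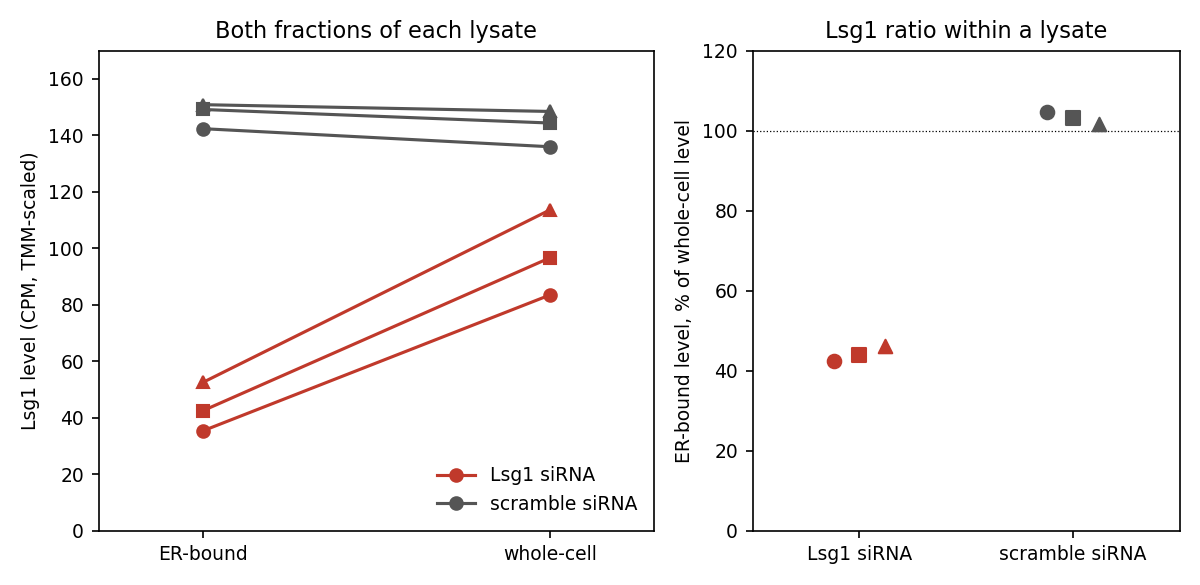
Lsg1 in the 2 fractions of each lysate, with the levels in CPM joined by 1 line per lysate, and the ER-bound level as a percent of the whole-cell level, Lsg1 siRNA left of scramble. Every Lsg1 siRNA lysate has a lower ER-bound than whole-cell level, at 42.3% to 46.2%, and every scramble lysate lies at 102% to 105%.

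Lsg1 varied more between libraries after Lsg1 siRNA than other genes of its level did. Its coefficient of variation was 19.8% in ER-bound RNA with Lsg1 siRNA and 3.03% in ER-bound RNA with scramble siRNA. In whole-cell RNA it was 15.4% with Lsg1 siRNA and 4.46% with scramble siRNA. Counting error alone would give between 1.18% and 2.28%, below the spread in each of the 4 groups. In ER-bound RNA with Lsg1 siRNA, 1 of 4544 genes within 2-fold of Lsg1's mean had a larger SD of log2 CPM, and in whole-cell RNA with Lsg1 siRNA 1 of 3332 did. In the scramble groups 1007 of 2407 genes of like level in ER-bound RNA and 141 of 2610 in whole-cell RNA had a larger SD than Lsg1.

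**Figure D3:**
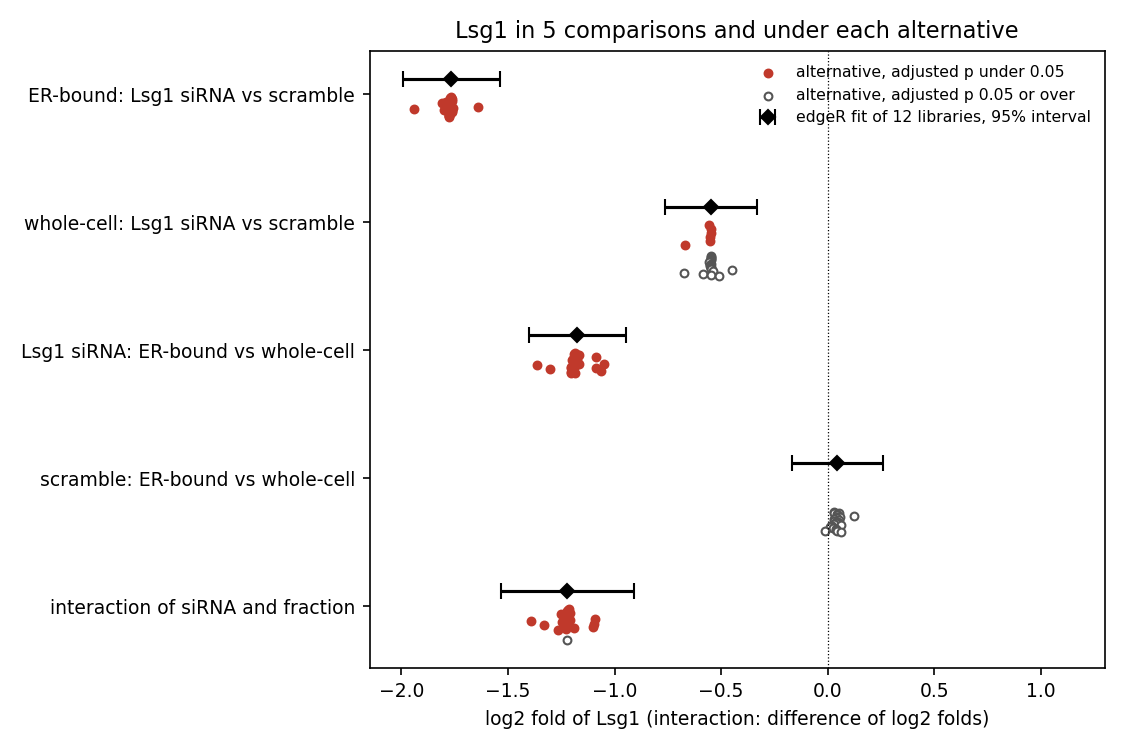
Log2 fold of Lsg1 in the 5 comparisons (diamond, with its 95% interval) and under each alternative processing (circles, filled where the adjusted p was under 0.05). The ER-bound siRNA fold lies between -1.94 and -1.64 and passes in every alternative, while the whole-cell siRNA fold lies between -0.67 and -0.45 and passes in 6 of 25.

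The partners of Lsg1 at its own step kept close to their scramble levels after Lsg1 siRNA in both fractions. Nmd3, the export adaptor that Lsg1 releases, had 138 to 140 CPM on ER-labelled ribosomes with Lsg1 siRNA, against 135 to 139 CPM with scramble siRNA. Its log2 fold was 0.02 on ER-labelled ribosomes and 0.01 in whole-cell RNA. Rpl10, the ribosomal protein loaded at this step, had log2 folds of 0.01 in both fractions; it has closely similar copies in the genome, so its count is uncertain. For the factors that remove Eif6, the log2 folds were 0.04 on ER-labelled ribosomes and 0.05 in whole-cell RNA for Sbds, and 0.01 and -0.02 for Efl1. Eif6 itself had 278 to 296 CPM on ER-labelled ribosomes with Lsg1 siRNA and 260 to 283 CPM with scramble siRNA, a log2 fold of 0.05, and 0.02 in whole-cell RNA. None of these 5 genes passed in either siRNA comparison or in the interaction, and their ranges overlapped between Lsg1 siRNA and scramble in both fractions.

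Of 20 other factors listed for late 60S maturation, 19 were measured and tested, and Afg2b was not analysed here. On ER-labelled ribosomes 0 of the 19 rose and 1 fell with Lsg1 siRNA, next to the 2.63% and 1.38% of all genes given above, and their median log2 fold was 0.01, as it was over all genes tested. The 1 was Dnajc21, whose yeast counterpart is a J-domain protein that helps strip a shuttling factor from the cytoplasmic 60S subunit. It measured 182 to 187 CPM with Lsg1 siRNA and 199 to 204 CPM with scramble siRNA, a log2 fold of -0.12 with an edgeR adjusted p of 0.012, which became 0.074 without ER-bound Lsg1 siRNA replicate 2. The other 18 ranged up to 0.10 for Mrto4, a placeholder for the ribosomal stalk, which did not pass. In whole-cell RNA and in the interaction 0 of the 19 passed in edgeR's test, with 0 of them under an unadjusted p of 0.05 in whole-cell RNA and 1 in the interaction; the log2 folds in whole-cell RNA lay between -0.04 and 0.05.

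Between the fractions these genes did differ, as most genes did. With Lsg1 siRNA 5 of the 19 were higher and 8 lower on ER-labelled ribosomes, next to 30.6% and 29.8% of all genes tested. With scramble siRNA 6 were higher and 8 lower, next to 29.8% and 29.1% of all genes. Scaling by library totals turned these splits to 9 higher and 5 lower with Lsg1 siRNA and 10 higher and 5 lower with scramble siRNA. Over all genes that scaling gave 6686 higher and 4142 lower with Lsg1 siRNA, and 6438 and 4144 with scramble siRNA. The lower ones with the smallest p were Xpo1, the nuclear export receptor (log2 fold -0.62 with Lsg1 siRNA and -0.64 with scramble siRNA), Gtpbp4, a GTPase of nuclear pre-60S particles (-0.60 and -0.57), and Afg2a, an ATPase that removes Rsl24d1 (-0.48 and -0.45). The higher ones with the smallest p were Mrto4 (0.58 and 0.49), the ribosomal protein gene Rpl24 (0.28 and 0.28) and Eif6 (0.23 and 0.20). Nmd3 (-0.33 and -0.34) and Efl1 (-0.46 and -0.49) were also lower on ER-labelled ribosomes, Rpl10 was higher (0.10 and 0.10), and Sbds did not pass (0.03 and 0.03). The corresponding log2 folds of Lsg1 were -1.18 with Lsg1 siRNA and 0.04 with scramble siRNA.

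Lsg1 belongs to the circularly permuted GTPases, whose G motifs come in a shuffled order. The other 6 members are Gnl2, Gnl3 and Gnl3l of the nucleolus, Gnl1, and Mtg1 and Noa1 of mitochondria. None of the 6 passed with Lsg1 siRNA in either fraction or in the interaction by edgeR's test; at an unadjusted p under 0.05 there were 2 on ER-labelled ribosomes, 0 in whole-cell RNA and 1 in the interaction. On ER-labelled ribosomes their log2 folds ran from -0.10 for Gnl3l, at 112 to 115 CPM with Lsg1 siRNA and 116 to 127 CPM with scramble siRNA, to 0.09 for Noa1. In whole-cell RNA they ran from -0.04 for Gnl3l to 0.04 for Gnl3.

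The nucleolar members were below their whole-cell levels on ER-labelled ribosomes whichever siRNA was used. The log2 folds were -0.68 with Lsg1 siRNA and -0.63 with scramble siRNA for Gnl2, -0.52 and -0.46 for Gnl3l, and -0.49 and -0.41 for Gnl3. Another member passed in each comparison, Gnl1 with Lsg1 siRNA (-0.08, and 0.00 under library totals) and Noa1 with scramble siRNA (-0.09). Neither passed without the 2 libraries that stand apart, at edgeR adjusted p of 0.064 for Gnl1 and 0.13 for Noa1. Mtg1 did not pass in either, at -0.03 with Lsg1 siRNA and 0.02 with scramble siRNA. In each comparison 4 of the 6 passed as lower. Of all genes tested, 29.8% did with Lsg1 siRNA and 29.1% with scramble siRNA.

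Per kilobase of the longest annotated transcript, Lsg1 stood at 13.7 CPM in ER-bound RNA with Lsg1 siRNA and 46.4 CPM in ER-bound RNA with scramble siRNA, and in the whole-cell fraction at 30.8 CPM with Lsg1 siRNA and 45.0 CPM with scramble siRNA. On this scale it was 18th of the 20 measured late 60S genes, itself included, in ER-bound RNA with Lsg1 siRNA and 11th in ER-bound RNA with scramble siRNA. Among the 7 GTPases its place was the 6th in ER-bound RNA with Lsg1 siRNA and the 3rd in ER-bound RNA with scramble siRNA. In whole-cell RNA it was 12th of the late 60S genes with Lsg1 siRNA and 11th with scramble siRNA. These places depend on the lengths used, which are of the longest transcript whether or not it codes for protein. For Nmd3 that was 9135 bases and for Gtpbp4 8783 bases.

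**Figure D4:**
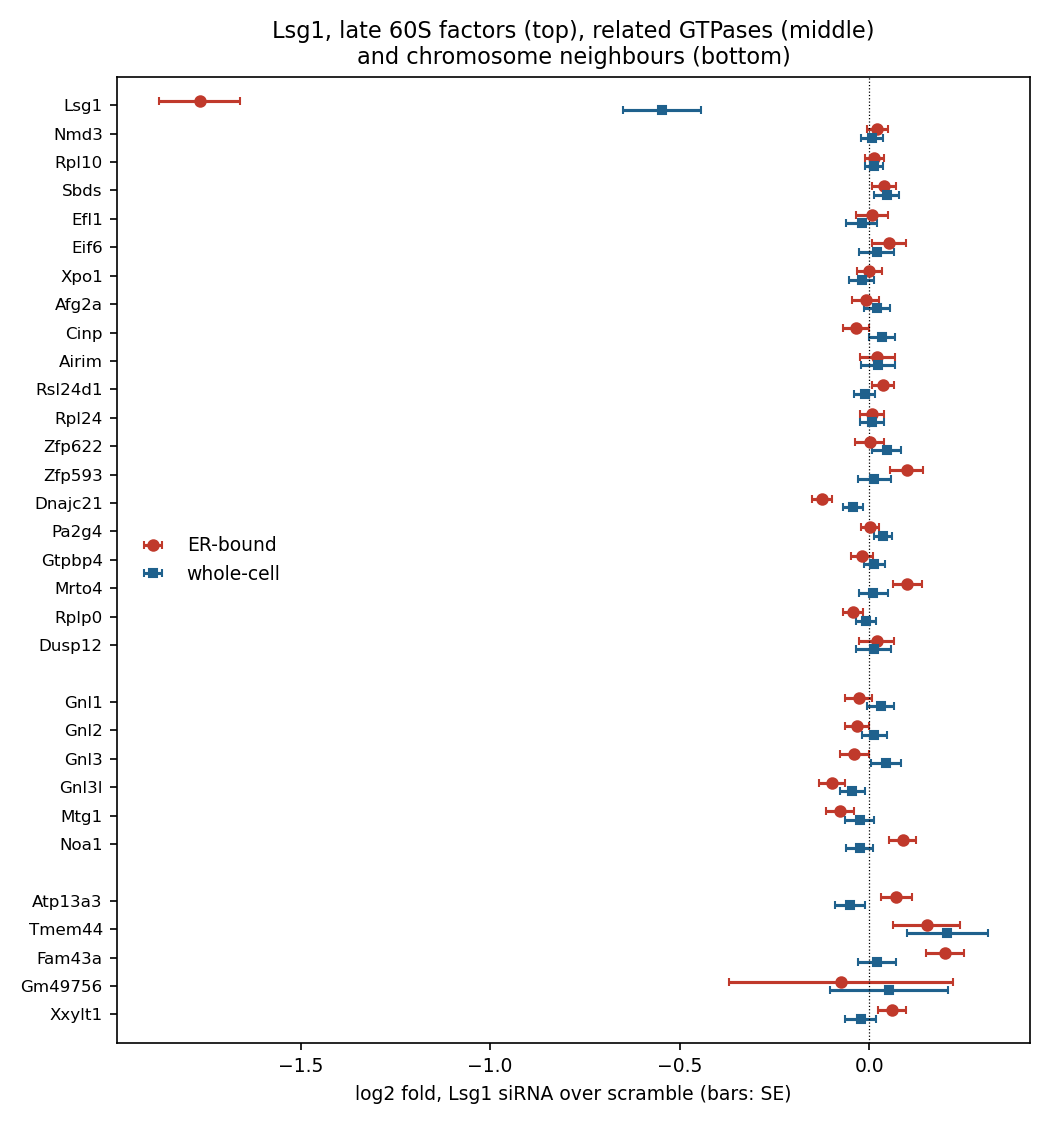
Log2 fold with Lsg1 siRNA over scramble on ER-labelled ribosomes and in whole-cell RNA, with bars of 1 SE to each side, for Lsg1, the other late 60S factors, the other circularly permuted GTPases and the chromosomal neighbours; Gp5, at 0.24 to 0.35 CPM, is left out. Lsg1 stands at -1.77 on ER-labelled ribosomes and -0.55 in whole-cell RNA, while the late 60S and GTPase genes lie between -0.12 and 0.10.

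Of the 6 genes nearest to Lsg1 on chromosome 16, none passed the test as lower with Lsg1 siRNA. On one side lie Tmem44, Atp13a3, a polyamine-transporting ATPase, and Gp5, a platelet glycoprotein, and on the other Fam43a, Gm49756 and Xxylt1, a xylosyltransferase that acts on Notch. On ER-labelled ribosomes with Lsg1 siRNA their log2 folds were 0.15 for Tmem44, 0.07 for Atp13a3, -0.08 for Gm49756 and 0.06 for Xxylt1, and none of these 4 passed. Gp5, at 0.24 to 0.35 CPM, had log2 folds of 0.52 on ER-labelled ribosomes (SE 0.38) and -0.55 in whole-cell RNA (SE 0.39), and passed in neither. Fam43a measured 28.7 to 31.5 CPM with Lsg1 siRNA and 25.0 to 27.2 CPM with scramble siRNA, a log2 fold of 0.20 with an edgeR adjusted p of 0.030, and in 7 alternatives it no longer passed (adjusted p 0.055 to 0.18). In whole-cell RNA the other 5 had log2 folds between -0.05 for Atp13a3 and 0.21 for Tmem44, and there and in the interaction none of the 6 neighbours passed.

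The gene whose profile over the 12 libraries was nearest to that of Lsg1 was Vamp3. Likeness was taken as the root mean square difference of log2 CPM over the 12 libraries, each gene centred on its own mean, for 10644 genes of at least 5 CPM; a flat profile would be 0.73 from Lsg1. The nearest 5 were Vamp3 (0.47), Prdm1, a transcriptional repressor (0.53), Mapre2, a microtubule end-binding protein (0.53), Csgalnact2, a transferase of chondroitin sulfate synthesis (0.54), and Acbd5, a peroxisomal acyl-CoA binding protein (0.54). They were chosen for this likeness, so their values are a description only.

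Their estimated folds were smaller than those of Lsg1, and none passed in whole-cell RNA and only Vamp3 in the interaction. Vamp3 averaged 44.4 CPM in ER-bound RNA with Lsg1 siRNA and 67.0 CPM in ER-bound RNA with scramble siRNA, and in the whole-cell fraction 63.6 CPM with Lsg1 siRNA and 73.3 CPM with scramble siRNA. The log2 folds of the 5 with Lsg1 siRNA lay between -0.68 and -0.40 on ER-labelled ribosomes and between -0.23 and -0.14 in whole-cell RNA, next to -1.77 and -0.55 for Lsg1. All 5 stayed the nearest under scaling by library totals, and 3 did without the 2 libraries that stand apart.

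**Figure D5:**
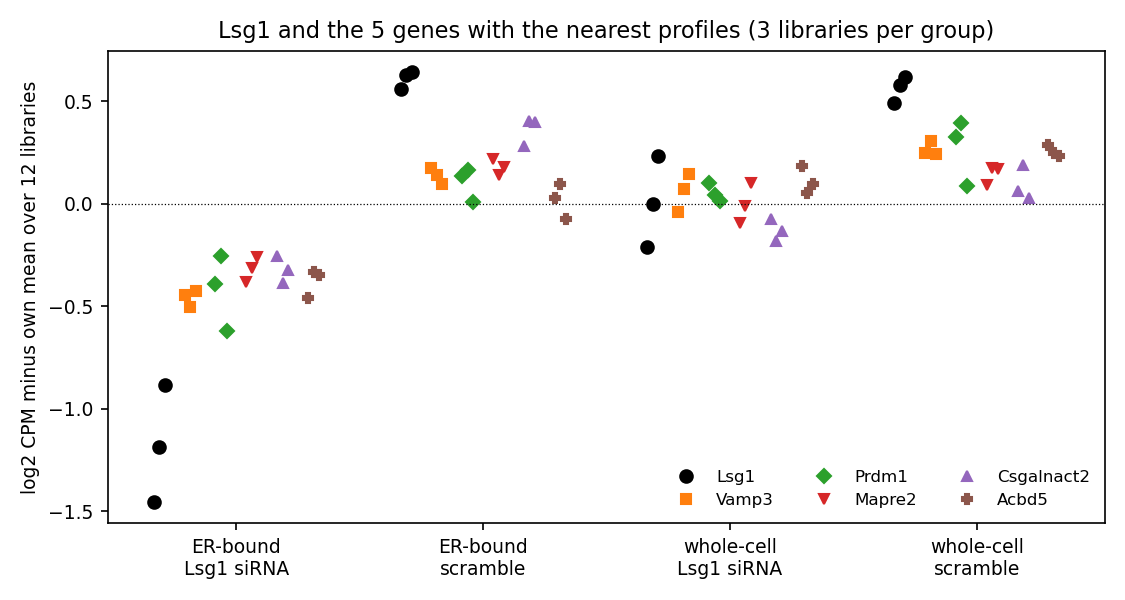
Log2 CPM minus the gene's own mean over the 12 libraries, for Lsg1 and the 5 genes nearest to it, with 1 point per library in groups of 3. All 6 genes are lowest in ER-bound RNA with Lsg1 siRNA, and Lsg1 reaches furthest from its mean in both directions.

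Of the 7 stem cell markers, Nanog and Dppa5a were lower with Lsg1 siRNA on ER-labelled ribosomes, in a comparison in which 1.38% of all genes were, and the other 5 did not pass. The sum of the 7 was 7011 to 7246 CPM per library with Lsg1 siRNA and 7433 to 7842 CPM with scramble siRNA, without overlap. In whole-cell RNA the sums were 6309 to 6409 CPM with Lsg1 siRNA and 6399 to 6452 CPM with scramble siRNA. The fibroblast markers summed to 53.6 to 60.1 CPM with Lsg1 siRNA and 48.9 to 56.9 CPM with scramble siRNA on ER-labelled ribosomes, and to 27.9 to 30.3 and 28.6 to 31.3 CPM in whole-cell RNA with Lsg1 siRNA and with scramble siRNA. Most of each sum was Thy1 alone. It averaged 46.0 CPM with Lsg1 siRNA and 41.7 CPM with scramble siRNA on ER-labelled ribosomes, and 20.9 and 21.0 CPM in whole-cell RNA. The 13 mitochondrially encoded mRNAs, which cytosolic ribosomes do not translate, summed to 248 to 278 CPM with Lsg1 siRNA and 238 to 283 CPM with scramble siRNA on ER-labelled ribosomes, against 19870 to 20150 CPM with Lsg1 siRNA and 18960 to 20650 CPM with scramble siRNA in whole-cell RNA. With the mitochondrially encoded and the ribosomal protein genes removed before scaling, Lsg1 had log2 folds of -1.78 on ER-labelled ribosomes and -0.55 in whole-cell RNA and an interaction of -1.23. The part of the stem cell and fibroblast markers in the Lsg1 result was not tested.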

How the data were processed

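The deposited values were raw counts of reads per gene in 12 HTSeq tables, 1 per library, with no normalization. Per the labels' protocols, poly-A RNA was selected from 750 ng of input, made into libraries with a directional kit and 9 PCR cycles, and read as 150 bp pairs. Per the submitters' processing notes, STAR 2.7.9a, HTSeq 0.11.2, GRCm39 and DESeq2 were used; no source used here gives the strand setting or the annotation release. Gene names, transcripts and neighbours came from an annotation of the older GRCm38 assembly by identifier (94.1% of identifiers, 99.5% of reads), so no coordinates are given. The 5 summary lines of each table (no feature, 2.65% to 5.26% of reads; not unique, 6.09% to 8.23%; ambiguous, 0.970% to 1.16%) were left out.

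The counts were scaled by TMM, filtered with filterByExpr and tested with edgeR 4.0.16 in R 4.3.3, with 1 mean for each of the 4 groups and all 12 libraries in 1 fit by its quasi-likelihood test, with a prior count of 0.125; the fit left 8 residual degrees of freedom, and the common biological coefficient of variation was 4.42%. P-values were adjusted by Benjamini-Hochberg over 17702 genes, with a threshold of 0.05. Log2 CPM outside the fit used 0.5 reads as pseudocount. The procedure was checked on simulated data that had 1 spread per gene over all groups. That check therefore did not cover the larger spread of Lsg1 after Lsg1 siRNA. The alternatives changed the scaling, the low-count filter, the tool (DESeq2 1.42.0, limma-voom from limma 3.58.1), the spread model, the libraries fitted, the blocks and the genes kept, or left out each library in turn. Figures were drawn with matplotlib 3.10.9.

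The pairing was checked by correlating deviations from group means over 10645 genes. Same-numbered ER-bound libraries of the 2 siRNAs correlated at 0.38, 0.13 and 0.32, so numbers were read as pairs in that fraction. In whole-cell RNA 1 of 3 fell short (0.28, -0.01 and 0.31). The fit described above had no block, and the replicate block was run as an alternative. Between fractions the pairing comes from shared lysates; the correlations were 0.28, 0.02 and 0.28 with Lsg1 siRNA and 0.16, -0.03 and 0.26 with scramble siRNA.

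Named genes were Lsg1; Nmd3, Rpl10, Sbds, Efl1 and Eif6; late 60S genes passing an siRNA comparison or the interaction, and the 3 with the smallest p in each direction between fractions; all circularly permuted GTPases; the 3 nearest tested neighbours on each side; the 5 genes most like Lsg1; and up to 5 genes of at least 5 CPM with a larger estimated fall on ER-labelled ribosomes. Lsg1, these lists and the tests were chosen with earlier results of these data known.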

Additional observations from a re-analysis of the deposited data

Results flagged for a closer look

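For 4 genes the effect of Lsg1 siRNA differed between ER-bound and whole-cell RNA by the interaction test. For Lsg1 the interaction was -1.22 on the log2 scale, with the ER-bound level below the whole-cell level in 3 of 3 Lsg1 siRNA lysates and above it in 3 of 3 scramble lysates. For Vamp3 it was -0.39 (edgeR adjusted p 0.026), and without single libraries its adjusted p was between 0.060 and 0.12 in the 8 cases in which it no longer passed. For Nme4 and Lage3 the interaction was positive, at 0.59 and 0.51 (adjusted p 0.00045 and 0.0013).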

How the results depend on the processing

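Among the 25 or 26 alternatives, the ER-bound siRNA fold of Lsg1 stayed between -1.94 and -1.64 and passed in every one, also over the range given by leaving out single libraries. The ER-bound against whole-cell fold with Lsg1 siRNA stayed between -1.36 and -1.05 and passed in all 26. The whole-cell siRNA fold was negative in 25 of 25, at -0.67 to -0.45 without single libraries (adjusted p 0.024 to 1.00). It passed with no filter on low counts (-0.55), with limma-voom and library weights (-0.56), with only the groups compared (-0.55), with the replicate block (-0.55, adjusted p 0.0016), without both libraries that stand apart (-0.67) and without ER-bound scramble replicate 1 (-0.55), and not with DESeq2 (adjusted p 0.57) or limma-voom (0.16). The ER-bound against whole-cell fold with scramble siRNA passed in none of 26 and lay between -0.0122, without whole-cell scramble replicate 1, and 0.0632 without other single libraries, the first with the opposite sign; under library totals it was 0.12. The interaction lay between -1.39 and -1.09 and did not pass with robust moderation (-1.22); with a block per lysate it was -1.22 (SE 0.04). The causes were not tested.

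Counts of genes called moved more. For ER-bound siRNA, 710 became 367, 290 and 432 without ER-bound Lsg1 siRNA replicate 1, 2 and 3, 312 without ER-bound scramble replicate 2, 375 with only the groups compared, 1178 with the replicate block and 1584 with library weights. Without both libraries that stand apart 307 genes were higher in place of 465. In whole-cell RNA 0 became at most 26, with no filter, and in the interaction 4 became at most 63, with library weights. The replicate block changed the call of Lsg1 in whole-cell RNA alone among its 5 comparisons. The other named genes gave 3092 values under alternatives, of which 3008 kept their call, 46 passed anew, 37 no longer passed and 1 reversed (Gnl1, 0.00387 between fractions with Lsg1 siRNA under library totals). The newer edgeR form was added after seeing the data.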

Other observations

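Same-numbered libraries kept their place in Lsg1 level across the groups: in each of the 4 groups the library numbered 1 was the lowest and the library numbered 3 the highest after TMM scaling. By library totals number 2 was the highest in ER-bound scramble RNA, at 155 CPM against 152 CPM for number 3. Set against the scramble library of the same number, Lsg1 siRNA left 24.8%, 28.5% and 34.8% of Lsg1 in ER-bound RNA for numbers 1, 2 and 3, and 61.4%, 66.9% and 76.5% in whole-cell RNA. The ER-bound remainder was lower than the whole-cell one in 3 of 3 numbers. The numbers name cultures and carry no order, and whole-cell libraries of the 2 siRNAs did not all pair by number, so these ratios are given as values with no test.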
